A study of Mus musculus with 18 samples.

Results

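The transcripts that each gene makes were compared between 3 control myotube libraries and 3 control myoblast libraries, 6 of the 18 libraries of the series. C2C12 is a mouse muscle cell line: its single-nucleus myoblasts divide, and after differentiation they fuse into multinucleate myotubes. The myotube group held differentiated C2C12 cells given a control siRNA (si-Ctrl), and the myoblast group held undifferentiated C2C12 cells given the control siRNA. The other 12 libraries came from cells given an siRNA against Setd2, which encodes a histone methyltransferase, and entered only a check at the end. RNA of both stages was taken straight after the cells had been stretched, all cells came from 1 line, and how long the myotubes had differentiated was not stated. The library name of myotube replicate 3 holds NT_2 where the other control names hold NT_1, so it may have received another control siRNA. The unit of description was the usage of a transcript: its TPM (a transcript level corrected for length and scaled to the same total in every library) as a share of the summed TPM of its gene. A gene was included when it had 5 TPM or more in all 6 control libraries, which 9476 of 47311 annotated genes had. Pld1 lay just inside that limit with a lowest value of 5 TPM, and 9930111J21Rik1 just outside with 4.996 TPM.

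Most mammalian genes can make several transcripts, by starting at different promoters, ending at different sites or choosing between exons. An exon that is left out of some transcripts is called a cassette exon, very short ones are called microexons, and 2 neighbouring exons of which only 1 is kept are called mutually exclusive. When myoblasts leave the cell cycle and fuse, many genes of the contractile apparatus, of calcium handling and of metabolism are known to change from a broadly used to a muscle form by these routes. PTBP1, MBNL, CELF, RBFOX and FXR1 proteins are among the RNA-binding proteins known to direct such choices in muscle.

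Exons that separate the transcripts which gained usage in myotubes from those which lost it are shown first, because several are short enough to be read whole. Some of the forms also differ elsewhere, as Tmed2-203 does in its first exon. Each line below gives an exon of up to 27 bases in capitals, with 12 lower-case bases of the neighbouring exons on each side, 5′ to 3′ on the strand of the gene, read from GENCODE M21 transcript sequences (GRCm38/mm10). These exons were chosen after their values had been seen.
Ank3, exon 3 of 25 in Ank3-242, chr10:69929447-69929458, plus strand: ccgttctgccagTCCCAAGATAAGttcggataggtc
Sptan1, exon 37 of 57 in Sptan1-203, chr2:30014158-30014172, plus strand: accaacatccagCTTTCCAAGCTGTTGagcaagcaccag
Plec, exon 3 of 33 in Plec-202, chr15:76194559-76194573, minus strand: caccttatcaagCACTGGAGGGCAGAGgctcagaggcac
Abi1, exon 4 of 11 in Abi1-202, chr2:22963214-22963228, minus strand: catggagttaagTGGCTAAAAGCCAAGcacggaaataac
Lrrfip1, exon 3 of 23 in Lrrfip1-204, chr1:91073324-91073341, plus strand: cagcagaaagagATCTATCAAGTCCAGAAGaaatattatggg
Mef2d, exon 8 of 12 in Mef2d-203, chr3:88161781-88161801, plus strand: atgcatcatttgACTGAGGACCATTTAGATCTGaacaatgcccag
Tmed2, exon 2 of 4 in Tmed2-203, chr5:124543487-124543507, plus strand: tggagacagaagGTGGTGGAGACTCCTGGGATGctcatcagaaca
Mef2a, exon 9 of 12 in Mef2a-208, chr7:67244521-67244544, minus strand: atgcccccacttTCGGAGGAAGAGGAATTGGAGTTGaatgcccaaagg
Musk, exon 11 of 15 in Musk-202, chr4:58356482-58356505, plus strand: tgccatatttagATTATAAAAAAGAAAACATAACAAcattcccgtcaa
Clasp1, exon 23 of 37 in Clasp1-204, chr1:118541675-118541698, plus strand: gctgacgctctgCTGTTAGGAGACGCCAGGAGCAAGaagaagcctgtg
Snx14, exon 16 of 29 in Snx14-207, chr9:88400723-88400749, minus strand: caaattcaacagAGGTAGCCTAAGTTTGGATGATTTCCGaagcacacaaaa
Inclusion is the TPM of transcripts that hold an exon over that TPM plus the TPM of transcripts that splice across it. By that measure the 24-base Mef2a exon was in 73.0%, 73.5% and 73.9% in myotubes and in 48.4%, 46.0% and 46.8% in myoblasts. Its counterpart in Mef2d, of 21 bases, was in 21.3%, 23.3% and 23.1% in myotubes and in 11.8%, 11.4% and 13.3% in myoblasts. In neither of these genes did the 2 stages overlap.

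Longer cassette exons that were almost absent in myoblasts are shown in the same way, with the exon in capitals. The 81-base exon of Fxr1 is the one known as muscle-specific, and the Clta exon lies in a clathrin light chain.
Clta, exon 5 of 6 in Clta-203, chr4:44031400-44031435, plus strand: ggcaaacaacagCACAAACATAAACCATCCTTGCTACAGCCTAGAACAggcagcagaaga
Fxr1, exon 15 of 17 in Fxr1-201, chr3:34064974-34065054, plus strand: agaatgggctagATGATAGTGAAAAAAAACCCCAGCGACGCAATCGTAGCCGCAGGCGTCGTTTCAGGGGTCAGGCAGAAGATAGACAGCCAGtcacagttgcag
The Fxr1 exon was included in 51.7%, 52.3% and 53.4% in myotubes, against 4.17%, 4.08% and 4.32% in myoblasts. The Clta exon was a minor form at both stages, with 10.9%, 9.90% and 11.1% in myotubes and 0.236%, 0.161% and 0.197% in myoblasts.

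Slc25a3, Tpm2 and Mef2d exchanged 1 exon for a neighbouring one of like length. For each pair, the exon of the transcript that gained is given before the exon of the transcript that lost; capitals mark bases that differ from the partner or have no counterpart in it in a global alignment, and lower case marks identical bases.
Slc25a3, exon 3 of 8 in Slc25a3-206, chr10:91122207-91122331, minus strand: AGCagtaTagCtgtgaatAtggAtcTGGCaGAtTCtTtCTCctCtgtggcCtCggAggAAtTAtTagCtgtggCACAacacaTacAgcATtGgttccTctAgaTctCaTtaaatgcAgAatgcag
Slc25a3, exon 3 of 8 in Slc25a3-201, chr10:91121922-91122043, minus strand: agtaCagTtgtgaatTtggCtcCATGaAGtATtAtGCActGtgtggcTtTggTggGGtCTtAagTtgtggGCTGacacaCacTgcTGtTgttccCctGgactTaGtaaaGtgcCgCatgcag
Tpm2, exon 6 of 9 in Tpm2-202, chr4:43518644-43518719, minus strand: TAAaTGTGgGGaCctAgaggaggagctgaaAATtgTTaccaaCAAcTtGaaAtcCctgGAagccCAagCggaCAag
Tpm2, exon 6 of 9 in Tpm2-203, chr4:43519003-43519078, minus strand: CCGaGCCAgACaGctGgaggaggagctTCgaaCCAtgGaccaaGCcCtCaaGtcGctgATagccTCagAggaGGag
Mef2d, exon 4 of 11 in Mef2d-202, chr3:88158221-88158355, plus strand: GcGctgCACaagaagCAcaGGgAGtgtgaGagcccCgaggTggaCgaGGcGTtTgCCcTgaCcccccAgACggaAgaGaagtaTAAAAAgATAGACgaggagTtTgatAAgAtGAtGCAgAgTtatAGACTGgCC
Mef2d, exon 4 of 10 in Mef2d-204, chr3:88158034-88158171, plus strand: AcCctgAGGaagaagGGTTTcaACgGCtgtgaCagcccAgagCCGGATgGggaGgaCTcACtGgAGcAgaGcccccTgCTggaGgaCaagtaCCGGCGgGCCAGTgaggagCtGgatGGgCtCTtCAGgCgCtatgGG
The partners are identical at 80 of 125 aligned positions of the longer exon in Slc25a3 (64.0%), at 46 of 76 in Tpm2 (60.5%) and at 74 of 138 in Mef2d (53.6%). In Slc25a3, the mitochondrial phosphate carrier, the 125-base exon had an inclusion of 84.3%, 83.4% and 82.2% in myotubes, against 4.74%, 3.5% and 2.92% in myoblasts. The 122-base partner was in 15.5%, 16.4% and 17.6% in myotubes, against 94.9%, 96.4% and 96.9% in myoblasts, so one exon replaced the other almost completely. In Tpm2, β-tropomyosin, the exchange was partial: the gaining exon was in 52.3%, 51.8% and 51.1% in myotubes and in 27.3%, 27.8% and 25.1% in myoblasts. In Mef2d, a transcription factor of the muscle programme, the gaining exon stayed the minor one, with 20.7%, 20.6% and 19.4% in myotubes and 6.92%, 9.90% and 6.03% in myoblasts.

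The 6 control libraries held 43.5, 66.6 and 50.8 megareads of estimated counts in myotubes and 57.2, 52.3 and 54.3 in myoblasts. The stage labels matched their markers: the 8 myotube markers, among them Myh3, Ckm and Mymk, summed to 11000 to 11700 TPM in myotubes and 31.3 to 91.0 TPM in myoblasts, and the 4 markers of dividing myoblasts to 122 to 134 TPM in myotubes and 775 to 784 TPM in myoblasts. Mki67, made by dividing cells, was still at 27.8 to 30.2 TPM in the myotube libraries, against 158 to 161 TPM in myoblasts, and in bulk RNA fewer cells of a type and less RNA per cell cannot be told apart. Dcn, a fibroblast marker, was at 92.9 to 100 TPM in myotubes and 4.16 to 4.42 TPM in myoblasts, while the other 3 of the 4 fibroblast markers stayed between 0.0170 and 3.45 TPM. The defining markers of neurons, adipocytes and endothelial cells were at or near 0, with 0 TPM for Snap25 in all 6 libraries and at most 0.154 TPM for Pecam1. Of 4 macrophage markers Adgre1 was at 0 in all 6, but Cd68 was at 1.04 to 1.19 TPM in myotubes and 2.27 to 3.22 TPM in myoblasts, and the 4 summed to 1.12 to 1.22 TPM in myotubes and 2.29 to 3.37 TPM in myoblasts. The part of mixed cell types in the usage changes was not tested. Stage, deposited table and library name prefix cannot be told apart, since each table and each prefix held 1 stage. The labels call the replicates biological without naming their cultures, so the p-values measure the spread between these libraries only.

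More than 1 in 10 of the genes that could be tested exchanged one transcript for another between myotubes and myoblasts. Of the 9476 included genes, 2236 had 1 annotated transcript and 1494 had fewer than 2 transcripts with a mean share of 5% or more, which left 5746 genes with 18144 transcripts. A transcript was called when its usage changed by at least 10 percentage points with an adjusted p under 0.05 (limma on the log2 odds of usage, Benjamini-Hochberg over 18144 transcripts). By that rule 899 transcripts gained and 876 lost usage in myotubes. At least 1 transcript was called in 1070 genes (18.6% of those tested), and 611 genes (10.6%) had an isoform switch, meaning a called gain and a called loss in the same gene. In 180 genes (3.13%) the leading transcript itself changed, the top transcript of myotubes and the top transcript of myoblasts being different and both called. The count of switch genes was 312 with edgeR's differential splicing test on the estimated counts, which found 307 of the same 611 genes.

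The size of the switches ran from the 10-point limit to a near-complete exchange. The transcript that gained most did so by a median of 18.0 points over the 611 switch genes and by 25.6 points over the 180 genes with a new leading transcript. It gained 30 points or more in 104 genes and 50 points or more in 21. In all 611 genes the shares of the transcript that gained most and of the one that lost most did not overlap between the 3 myotube and the 3 myoblast libraries. The call itself favours this, so it is no further support for the switches. The share over all tested genes was not computed. Between 2 myotube libraries the median transcript differed by 2.34 to 2.50 points, between 2 myoblast libraries by 2.14 to 2.20 points, and between a myotube and a myoblast library by 3.64 to 3.98 points.

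**Figure D1:**
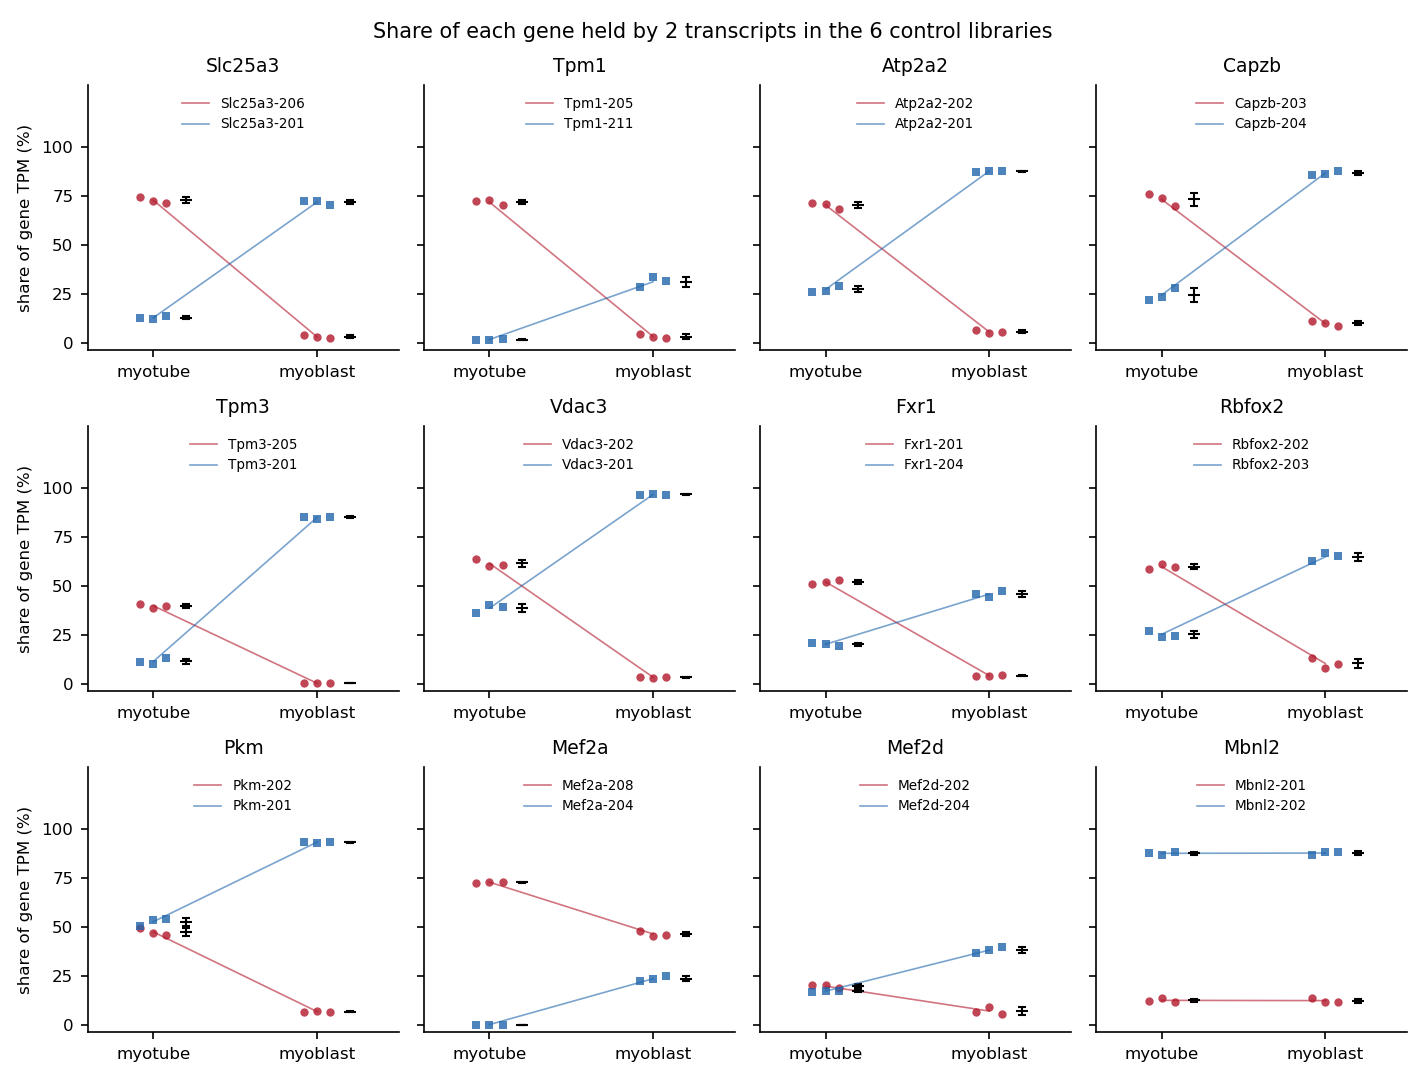
Share of the gene's TPM (y axis, percent) held by 2 transcripts of 12 genes in the 3 control myotube libraries (left) and the 3 control myoblast libraries (right), with 1 point per library, lines between group means and black bars for the mean ± SD. In Slc25a3, Atp2a2 and Capzb the 2 transcripts change places, whereas the 2 Mbnl2 transcripts keep their shares.

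Genes of the sarcomere and the Z-disc, which build and anchor the contractile filaments, often exchanged one transcript for another. Of 32 sarcomere and Z-disc genes tested, 20 had a called transcript (62.5%, against 18.6% of all tested genes) and 17 switched (53.1%, against 10.6%). A new leading transcript was found in 11 (34.4%, against 3.13%). The largest change per gene had a median of 16.9 points, against 5.15 points over all tested genes. This and the other lists were chosen with earlier results of these data known, so their shares are descriptive and their difference from all genes was not tested. All 4 tropomyosins are expressed here and 3 could be tested for usage, Tpm4 having fewer than 2 testable transcripts. Tropomyosin winds along the actin filament and sets where myosin can bind. Tpm1-205, a long form, made up 72.3%, 72.7% and 70.5% of Tpm1 in myotubes, against 4.24%, 2.92% and 2.12% in myoblasts. Tpm1-211, a short form with 744 coding bases in place of 852, had 1.36%, 1.54% and 1.82% in myotubes, against 28.3%, 33.4% and 31.6% in myoblasts, and Tpm1-216, which differs from Tpm1-205 in its last exon and lacks a 79-base exon before it, lost 23.2 points. The gain of Tpm1-205 was 68.7 points (log2 odds 6.34, SE 0.23, adjusted p 8.58e-06 by limma), with no overlap between the stages.

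Tpm3 went further in its loss than in its gain. Its short form Tpm3-201 held 10.8%, 10.2% and 13% in myotubes, against 85.2%, 84.4% and 85.3% in myoblasts, a loss of 73.7 points. It was replaced by 2 long forms, Tpm3-205 with 40.8%, 38.9% and 39.6% in myotubes against 0.264%, 0.208% and 0.134% in myoblasts, and Tpm3-204, which gained 18.5 points. In Tpm2, whose exclusive exons are printed above, Tpm2-202 held 50.5%, 50.1% and 48.8% in myotubes and 26.6%, 26.9% and 24.8% in myoblasts. All 3 genes thus gained a form with 852 or 855 coding bases. Such a form was not new in Tpm1 and Tpm2, since the losing Tpm1-216 and Tpm2-203 also have 852. Tpm1-216 was the leading Tpm1 transcript in myoblasts.

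Other filament genes changed by different routes. Capzb encodes the β subunit of the protein that caps actin filaments, at the Z-disc in muscle. Capzb-203, which includes a 113-base exon (chr4:139288861-139288973, plus strand), held 76.2%, 73.7% and 69.9% in myotubes, against 10.8%, 9.92% and 8.71% in myoblasts. Its partner Capzb-204, which skips that exon, held 21.6%, 23.3% and 28.1% in myotubes, against 85.9%, 86.2% and 88.0% in myoblasts, so the 2 forms changed places (gain 63.4 points, log2 odds 4.64, SE 0.14, adjusted p 4.08e-06 by limma). Flnc, a Z-disc filamin, went the opposite way in structure, as Flnc-202, which leaves out a 99-base exon, held 61.1%, 62.0% and 58.8% in myotubes, against 5.40%, 3.54% and 4.56% in myoblasts. Fhl1, a LIM-domain protein of muscle, changed its first exon, and Fhl1-204 held 53.4%, 53.7% and 52.0% in myotubes, against 0.874%, 1.82% and 2.03% in myoblasts.

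The enigma-family genes Pdlim5 and Pdlim7, whose proteins tie kinases to the Z-disc through LIM domains, moved to much shorter forms. Pdlim5-201, with 1773 coding bases, held 13%, 13.3% and 14.1% in myotubes, against 65.2%, 71.3% and 72.1% in myoblasts. Pdlim5-203, with 642 coding bases, held 50.6%, 42.7% and 43.3% in myotubes, against 2.53%, 0% and 4.11% in myoblasts. Pdlim7-201, with 1371 coding bases, lost 46.0 points, while Pdlim7-202 and Pdlim7-203, with 564 and 666 coding bases, gained 29.7 and 18.1 points. Both genes thus made mostly transcripts with an earlier last exon in myotubes. TPM and estimated counts gave unlike gene totals here. Pdlim5 had a mean of 205 TPM in myotubes and 74.9 TPM in myoblasts, with a log2 fold change of 0.44 on estimated counts. Pdlim7 had 276 TPM in myotubes and 163 TPM in myoblasts, with a log2 fold change of 0.26. Ldb3, a related Z-disc gene, was under 5 TPM in at least 1 library and was not included.

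Calcium-handling and excitation genes, which move calcium in and out of the sarcoplasmic reticulum, switched in 14 of 25 tested cases (56.0%). Over all tested genes 10.6% switched. The median largest change was 12 points, against 5.15 points over all tested genes. Atp2a2 encodes the calcium pump SERCA2. Atp2a2-202, with the last exon of the muscle form SERCA2a and 2994 coding bases, held 71.5%, 71.0% and 68.5% in myotubes, against 6.26%, 4.76% and 5.47% in myoblasts. Atp2a2-201, the broadly used SERCA2b with 3132 coding bases, held 26.0%, 26.6% and 28.9% in myotubes, against 87.4%, 88.0% and 87.7% in myoblasts. The gain was 64.8 points (log2 odds 5.30, SE 0.12, adjusted p 1.27e-06 by limma).

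Further genes of calcium handling and excitation changed in transcript usage. Asph, whose short products include junctin of the calcium-release complex, gained Asph-206 with 34.0%, 35.6% and 34.7% in myotubes, against 0.760%, 0.886% and 0.627% in myoblasts. Asph-204 was listed at 0 in the 3 myotube libraries and held 25.4%, 22.2% and 18.6% in myoblasts. The Asph total was 80.5 TPM in myotubes and 57.7 TPM in myoblasts, while the estimated counts gave a log2 fold change of -0.18. Cacna2d1, the α2δ subunit of voltage-gated calcium channels, gained 30.1 points of the coding Cacna2d1-202, and its transcript that lost most, Cacna2d1-211, is noncoding. Musk, the receptor kinase of the nerve-muscle synapse, included its 24-base exon in 67.7%, 65.8% and 67.9% in myotubes, against 36.2%, 36% and 44.6% in myoblasts. In Camk2d, a calcium-dependent kinase, the only called transcripts were 2 retained-intron transcripts, and in Camk2g no transcript was called.

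Among 60 tested genes of the actin cytoskeleton and adhesion, 26 switched (43.3%, against 10.6% of all tested genes). A new leading transcript was found in 14 of the 60 (23.3%, against 3.13%). Palld encodes palladin, an actin-bundling scaffold, and Palld-204, its long form with 4224 coding bases, held 65.2%, 66.6% and 63.6% in myotubes, against 4.23%, 2.52% and 1.93% in myoblasts. Palld-202, which starts at a later first exon and has 1989 coding bases, lost 56.7 points. The adhesion molecule Ncam1 has membrane-spanning and lipid-anchored forms. Ncam1-201, which differs from the losing Ncam1-204 in its last exon, held 72.5%, 72.4% and 72.0% in myotubes, against 30.8%, 29.2% and 29.8% in myoblasts. Svil, the membrane-skeleton protein supervillin, gained a form with 6510 coding bases by 34.3 points, and Dtna, dystrobrevin α of the dystrophin complex, gained its short Dtna-201 by 42.3 points. Twf2, an actin-monomer-binding protein, had the largest gain of all 180 genes whose leading transcript changed. Twf2-204 held 83.8%, 83.7% and 81.9% in myotubes, against 6.34%, 5.56% and 11.7% in myoblasts, and differs from the losing Twf2-201 in its first exon.

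Spectrin, caldesmon and the microtubule genes showed smaller or partial changes. Sptan1-203, with the 15-base exon printed above, gained 14.6 points while Sptan1-202 fell to 0.0107%, 0.123% and 0.00950% in myotubes, against 22.6%, 24.2% and 24.5% in myoblasts. Cald1-204 of caldesmon, an actin regulator, gained 19.6 points. Of 24 tested microtubule and motor genes 5 switched (20.8%, against 10.6% of all tested genes), none with a new leading transcript. The median largest change of 5.04 points was close to the 5.15 points of all tested genes. Map4, a microtubule-binding protein, gained Map4-202, which holds a 3180-base exon, with 34.6%, 35.4% and 33.7% in myotubes, against 1.02%, 0.751% and 1.04% in myoblasts. Clasp2-201 was called with a gain of 31.6 points (adjusted p 0.0293 by limma) although its replicates spread widely, at 56.5%, 30.4% and 27.9% in myotubes and 9.32%, 10.3% and 0.349% in myoblasts. It was no longer called without myotube replicate 1 (22.5 points, adjusted p 0.0797), myotube replicate 2 (adjusted p 0.0601) or myoblast replicate 1 (adjusted p 0.0517), and edgeR's differential splicing test gave it an adjusted p of 0.0629 and limma with a pseudocount of 0.1 TPM 0.0684.

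**Figure D2:**
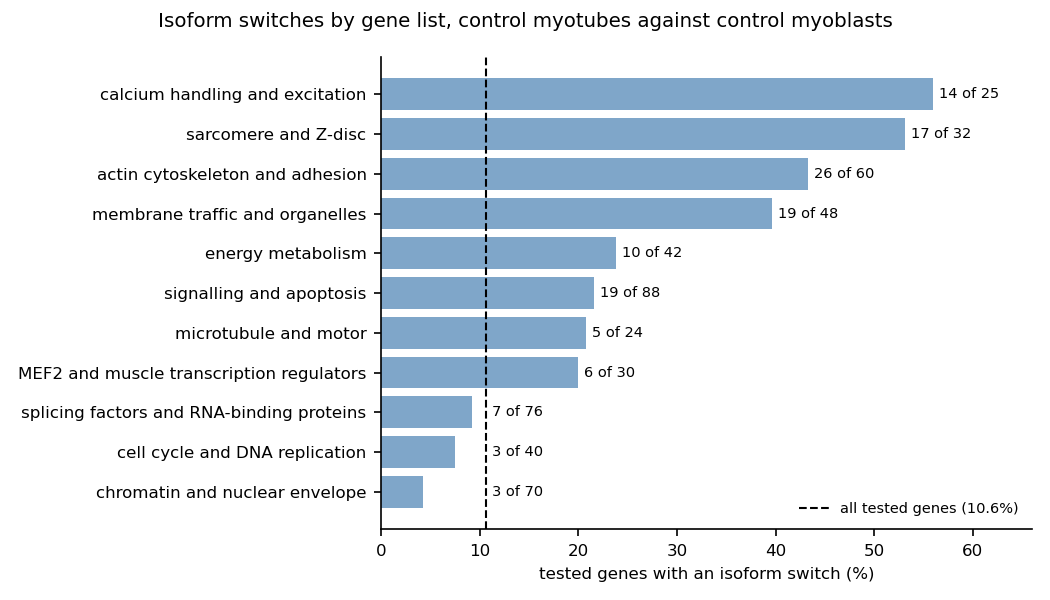
Percentage of tested genes with an isoform switch (x axis) in 11 gene lists (y axis), with the number of switch genes and of tested genes at each bar; the dashed line marks all 5746 tested genes at 10.6%. Calcium handling, sarcomere, actin and membrane-traffic lists lie at 39.6% to 56.0%, while splicing, cell-cycle and chromatin lists lie below the line. The lists were chosen with earlier results of these data known.

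Membrane-traffic and organelle genes, which shape vesicles, mitochondria and the endoplasmic reticulum, switched in 19 of 48 tested cases (39.6%). The share over all tested genes was 10.6%. Rtn4 encodes the reticulons called Nogo, which bend endoplasmic reticulum membranes. Rtn4-204, with 1125 coding bases, held 1.26%, 1.33% and 1.99% in myotubes, against 46.5%, 47.9% and 48.9% in myoblasts. The gain was split between the longest form Rtn4-205 (36.8 points), which includes a 2361-base exon, and the short Rtn4-201 (27.9 points). Tmed2, a cargo receptor between endoplasmic reticulum and Golgi, made Tmed2-203 at 41.3%, 39.8% and 40% in myotubes, against 0.359%, 0.318% and 0.306% in myoblasts. Snx14, an organelle-contact protein, took up the 27-base exon printed above, and Snx14-207 held 40.3%, 45.6% and 50.3% in myotubes, against 1.75%, 6.90% and 2.59% in myoblasts. Mfn2, which fuses mitochondria, gained Mfn2-201 by 42.5 points, but its coding sequence equals that of the losing Mfn2-204, and the difference is an 83-base exon outside it. The clathrin light chain Cltb, the dynamin Dnm2 and the mitochondrial fission gene Dnm1l had no called transcript.

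In energy metabolism 10 of 42 tested genes switched (23.8%, against 10.6% of all tested genes). A few of the switches were among the most complete of the data, whereas the median gene of the list moved by 3.73 points, against 5.15 points. Slc25a3-206, with the 125-base exon, held 74.4%, 72.4% and 71.5% in myotubes, against 3.82%, 2.80% and 2.26% in myoblasts (gain 69.8 points, log2 odds 6.45, SE 0.19, adjusted p 3.31e-06 by limma). Vdac3, a channel of the outer mitochondrial membrane, gained Vdac3-202 with 63.7%, 60% and 60.6% in myotubes, against 3.35%, 2.96% and 3.46% in myoblasts; its coding sequence is 3 bases longer than that of the losing Vdac3-201. Atp5c1 encodes the γ subunit of ATP synthase, and Atp5c1-201, which skips a 37-base exon, held 83.8%, 80.6% and 83.7% in myotubes, against 40%, 38.3% and 37.2% in myoblasts. Ak1, muscle adenylate kinase, changed its first exon, with Ak1-202 at 65.0%, 65.2% and 64.7% in myotubes and 16.5%, 14.1% and 21.1% in myoblasts.

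Pkm, pyruvate kinase, chooses between a pair of exclusive 167-base exons that make the M1 and M2 enzymes. Pkm-202 (M1) held 49.6%, 46.7% and 45.8% in myotubes, against 6.48%, 6.97% and 6.60% in myoblasts. Pkm-201 (M2) held 50.4%, 53.3% and 54.2% in myotubes, against 93.5%, 93.0% and 93.4% in myoblasts. The myotube cultures therefore still made slightly more M2 than M1 transcript, and Pkm is not among the 180 genes with a new leading transcript. The annotated length of Pkm-202 differs from that in the deposited table, so its exact structure in the authors' annotation is uncertain. The same holds for at least 1 of the 2 exchanged transcripts of Palld, Vdac3, Dtna, Clasp2, Eya4, Rbfox2, H2afy, Cdk2 and Neurl1a, whose exon and coding-length differences are those of GENCODE M21.

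Among the regulators of transcription 6 of 30 tested genes switched (20%, against 10.6% of all tested genes) and none changed its leading transcript. Mef2a-208, which holds the 24-base exon, led at both stages, with 72.6%, 72.9% and 73.0% in myotubes and 47.7%, 45.5% and 45.9% in myoblasts, while Mef2a-204, without it, was at or near 0 in myotubes and at 22.3%, 23.4% and 24.7% in myoblasts. Mef2d-202, with the exclusive exon that gained, held 20.3%, 20.1% and 18.6% in myotubes, against 6.29%, 9.01% and 5.49% in myoblasts. Mef2d-203, with the 21-base exon, gained 10.9 points, and Mef2d-204, with neither, held 16.6%, 17.3% and 17.4% in myotubes, against 36.5%, 38.0% and 39.8% in myoblasts. Mef2c was not included, being under 5 TPM in at least 1 library. Nfib and Eya4 exchanged 18.7 and 17.2 points, and Nfix and Tead1, other regulators active in muscle, had no called transcript.

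Of 76 tested genes for splicing factors and other RNA-binding proteins, 7 switched (9.21%), close to the 10.6% of all tested genes. A called transcript was found in 21 (27.6%, against 18.6%). The switches were large in Rbfox2 and Fxr1. Rbfox2-202, which lacks a 40-base exon present in Rbfox2-203, held 58.8%, 61.0% and 59.6% in myotubes, against 12.9%, 8.23% and 9.79% in myoblasts. Fxr1-201, with the 81-base exon, held 51.0%, 51.9% and 53.0% in myotubes, against 4.11%, 4.01% and 4.27% in myoblasts (gain 47.8 points, log2 odds 4.56, SE 0.08, adjusted p 5.91e-07 by limma). Fxr1-206 was listed at 0 in the 3 myotube libraries and held 23.4%, 24.5% and 21.9% in myoblasts. No transcript was called in Mbnl1, Mbnl2, Ptbp1 or Tra2b. Ptbp1, a repressor of many muscle and neural exons, had a lower total, with a mean of 109 ± 4.49 TPM in myotubes and 410 ± 17.2 TPM in myoblasts (SD, n = 3 libraries each; log2 fold change -1.99, adjusted p 1.50e-12 by edgeR). The totals of Tra2b (log2 fold change -1.09, adjusted p 3.6e-11 by edgeR) and Mbnl2 (-0.13, adjusted p 0.00961) were also called lower. That of Mbnl1 was not called (adjusted p 0.147). Of all genes tested for usage, 86.1% had a called total. Celf1-203 gained 14.9 points at an adjusted p of 0.0485 by limma, and it was no longer called without any 1 of 5 libraries (myotube replicates 1 and 2 and the myoblast replicates, adjusted p 0.0506 to 0.131), with a replicate block (adjusted p 0.11) or with a pseudocount of 0.1 TPM (adjusted p 0.0605).

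Signalling genes switched in 19 of 88 tested cases (21.6%, against 10.6% of all tested genes). Map2k7, a kinase of the JNK pathway, included a 48-base exon more often, and Map2k7-202 held 86.0%, 82.3% and 77.4% in myotubes, against 38.5%, 45.2% and 44.1% in myoblasts. Araf, a RAF kinase, gained Araf-202, whose coding sequence of 558 bases is much shorter than the 1812 bases of Araf-201, by 29.7 points. Prkar1a, a regulatory subunit of protein kinase A, exchanged first exons without a change of coding sequence.

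Of 70 tested chromatin and nuclear-envelope genes 3 switched (4.29%), and of 40 tested cell-cycle genes 3 (7.50%), against 10.6% of all tested genes. The cell-cycle share lies near that of all genes, and no gene of either list changed its leading transcript. H2afy encodes the histone variant macroH2A1, whose 1.1 form binds ADP-ribose metabolites. H2afy-202 (macroH2A1.1) held 38.8%, 35.5% and 38.2% in myotubes, against 6.36%, 5.96% and 6.25% in myoblasts. H2afy-201 (macroH2A1.2) held 5.71%, 6.27% and 4.25% in myotubes, against 40.2%, 41.8% and 40.2% in myoblasts. The nuclear-envelope gene Sun1 gained Sun1-205, which lacks 3 neighbouring exons, by 21.3 points. Cdkn2c, a CDK inhibitor, exchanged first exons with an unchanged coding sequence, Cdk2-202 gained 18.1 points, and Ccna2, a cyclin of S phase, lost 10.4 points of Ccna2-203, a transcript marked for nonsense-mediated decay. The Ccna2-203 loss was no longer called without myotube replicate 3 (-9.03 points) or without any 1 myoblast library (adjusted p 0.0523 to 0.0562 by limma). Nor did edgeR's differential splicing test call the gain of its partner Ccna2-201 (adjusted p 0.635) or the Cdkn2c-202 loss (adjusted p 0.0943).

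Of the other genes among the 20 largest gains of a new leading transcript, several changed their first exon. Vma21, which assembles the proton pump of lysosomes, gained Vma21-203 with 76.0%, 75.2% and 76.7% in myotubes, against 12.3%, 9.14% and 9.45% in myoblasts. Fbxw7, the substrate receptor of a ubiquitin ligase, used Fbxw7-202 for 56.8%, 56.6% and 56.9% in myotubes, and this transcript was listed at 0 in the 3 myoblast libraries. Schip1, Neurl1a and Rgma also changed first exons, with gains of 57.7, 57.4 and 50.5 points. Cassette exons separated the forms of Hacd1, Phka1 and Map4k5. Hacd1, an enzyme of very-long-chain fatty acid synthesis in muscle, gained Hacd1-203, whose 122-base exon lengthens the coding sequence to 744 from 495 bases, with 80.5%, 78.1% and 77.0% in myotubes, against 12.5%, 13% and 13.3% in myoblasts. Phka1, the muscle α subunit of phosphorylase kinase, gained Phka1-201, which leaves out a 177-base exon, with 60.5%, 63.0% and 52.8% in myotubes, against 3.58%, 0% and 1.89% in myoblasts.

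Scrib and Hecw2 had their gains in short or noncoding annotated transcripts. Scrib, a cell-polarity scaffold, gained Scrib-205, an annotated fragment of 423 bases, with 55.1%, 55.1% and 53.7% in myotubes, against 1.52%, 1.99% and 2.82% in myoblasts, and lost Scrib-202, the 5440-base transcript, which was listed at 0 in myotubes. Because TPM divides by length, the Scrib total was 321 TPM in myotubes and 43.4 TPM in myoblasts, while the estimated counts gave a log2 fold change of 1.05. Hecw2-206, a processed transcript with no coding sequence, gained 54.1 points.

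In Capzb, Atp5c1, Slc25a3 and Vdac3 a large change of usage went with a small change of the gene total, with log2 fold changes of -0.23 to -0.05. The totals of Slc25a3 and Vdac3 were called lower in myotubes, and those of Capzb and Atp5c1 were not called. Gene totals were tested with edgeR's quasi-likelihood test on summed estimated counts, which called 6436 genes higher and 6263 lower in myotubes, 79.6% of 15953. Of the 611 switch genes 337 were called higher, 204 lower and 70 not called; their share of called totals was 88.5%, against 86.1% of all genes tested for usage. In 303 switch genes (49.6%) the total differed by less than 1.5-fold, against 58.7% of all genes tested for usage. Capzb had a mean of 288 ± 3.5 TPM in myotubes and 301 ± 6.30 TPM in myoblasts (SD, n = 3 libraries each; log2 fold change -0.05, adjusted p 0.173 by edgeR) while its 2 forms changed places. Atp5c1 had 410 ± 2.61 TPM in myotubes and 401 ± 3.83 TPM in myoblasts, whereas its log2 fold change on TMM-scaled estimated counts was -0.05 (adjusted p 0.166 by edgeR), so the 2 measures differ in sign. The Slc25a3 total was 651 ± 18.1 TPM in myotubes and 678 ± 11 TPM in myoblasts (log2 fold change -0.23, adjusted p 6.76e-05 by edgeR). The Vdac3 total was 224 ± 4.02 TPM in myotubes and 240 ± 4.94 TPM in myoblasts (log2 fold change -0.11, adjusted p 0.00796 by edgeR), and the Cdk2 total 59.6 ± 1.84 TPM in myotubes and 60 ± 1.19 TPM in myoblasts.

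In other genes the muscle form arose together with a rise of the whole gene. Tpm1 had 1970 ± 65.0 TPM in myotubes and 672 ± 4.50 TPM in myoblasts, and Atp2a2 653 ± 14.5 TPM in myotubes and 228 ± 12.2 TPM in myoblasts. Tpm2 had the highest log2 fold change of these genes, at 3.98, with 3230 ± 92.7 TPM in myotubes and 234 ± 14 TPM in myoblasts. Pkm gained its M1 form and H2afy its macroH2A1.1 form while the gene total fell, with log2 fold changes of -0.88 and -1.45. Pkm had 1280 ± 30.6 TPM in myotubes and 2330 ± 37.3 TPM in myoblasts, and H2afy had 75.6 ± 3.29 TPM in myotubes and 197 ± 4.70 TPM in myoblasts.

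**Figure D3:**
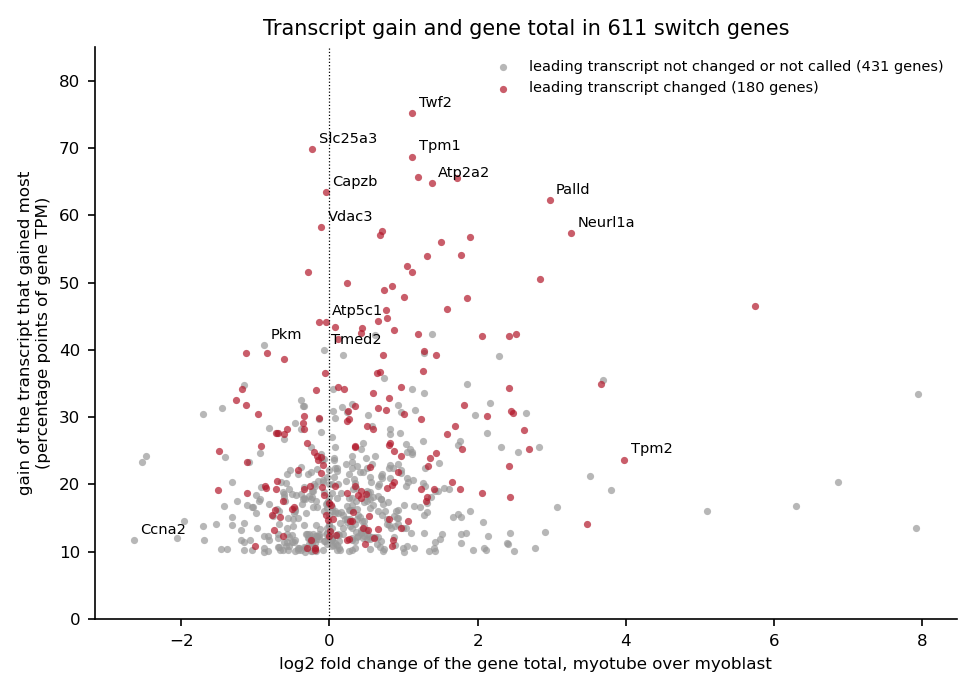
For each of the 611 switch genes, the gain of the transcript that gained most (y axis, percentage points of the gene's TPM) against the log2 fold change of the gene total, myotube over myoblast (x axis). Red points are the 180 genes whose leading transcript changed; Slc25a3, Capzb, Vdac3 and Atp5c1 combine gains of 44.2 to 69.8 points with log2 fold changes of the total of -0.23 to -0.05.

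The structure of the 2 transcripts that gained and lost most was compared in the 539 of 611 switch genes where both annotated models had the length given in the deposited tables. The pairs were sorted by their ends first. The first exon but not the last differed in 160 pairs (29.7%), of which 51 also differed by an internal exon, and the last exon but not the first in 91 (16.9%), of which 25 did. Both ends differed in 79 pairs (14.7%). With shared ends, internal exons separated 154 pairs (28.6%) and only exon boundaries 55 (10.2%). Among the 2 most used transcripts of 4218 genes with no called transcript, sorted in the same way, the first exon differed in 25.6%, the last in 20.4%, internal exons alone in 14.8% and boundaries alone in 22.4%. Both transcripts were coding in 427 switch pairs; the coding sequence was the same in 59 of these (13.8%) and differed in length by a multiple of 3 in 308 (72.1%), against 62.3% in the genes with no call. Where internal exons differed between shared ends, the gaining transcript alone had the extra exon in 88 genes (57.1%), as in Capzb, Fxr1 and Hacd1. The losing transcript alone had it in 50 (32.5%), as in Flnc, Phka1 and Atp5c1. In genes with no call, the more used transcript alone had it in 326 of 623 such pairs (52.3%) and the less used in 252 (40.4%).

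Very short exons lay on the myotube side of the switch pairs. An internal exon of at most 27 bases was in the gaining transcript only in 41 of 539 pairs (7.61%) and in the losing transcript only in 4 (0.742%), against 26 and 21 of 4218 pairs (0.616% and 0.498%) for the more and the less used transcript of genes with no call. Inclusion of every internal exon was then computed as the TPM of transcripts that hold it over that TPM plus the TPM of transcripts that splice across it, which re-expresses the same transcript values and is no independent measurement. This measure and the 27-base limit were chosen after the usage results had been seen. An exon was called when inclusion differed by at least 10 points with an adjusted p under 0.05 (limma, Benjamini-Hochberg over 4277 exons).

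Of 221 exons of up to 27 bases, 73 (33%) in 67 genes were included more in myotubes and 13 (5.88%) less, with a median change of 4.47 points. Over exons of all lengths 481 of 4277 (11.2%) were included more and 296 (6.92%) less, with a median change of 0.495 points. Exons of 28 to 50 bases lay between, with 63 of 402 (15.7%) more and 23 (5.72%) less, and those over 50 bases had 345 of 3654 (9.44%) more and 260 (7.12%) less. The 73 exons had a median length of 18 bases and 67 (91.8%) were multiples of 3, as were 12 of the 13 exons included less (92.3%), against 100 of the 135 uncalled exons (74.1%). Their bases were 55.9% A or G and 47.5% G or C, against 59.0% and 48.3% in the uncalled ones.

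Among the short exons included more in myotubes were those of Ank3, Plec, Sptan1 and Abi1, which act at the membrane skeleton and on actin. The 12-base exon of Ank3, an ankyrin that anchors membrane proteins, was in 44.2%, 36.8% and 43.4% in myotubes, against 1.85%, 1.28% and 0.758% in myoblasts. The 15-base exon of Plec, the cytoskeletal linker plectin, was in 25%, 24.9% and 22.8% in myotubes, against 1.68%, 1.05% and 0.953% in myoblasts, and that of Sptan1, α-spectrin, in 32.0%, 32.0% and 31.4% in myotubes, against 9.99%, 9.45% and 7.98% in myoblasts. All 3 exons were minor at both stages. Abi1, of the WAVE actin-nucleation complex, included its 15-base exon in 49.9%, 57.4% and 57.6% in myotubes, against 13.1%, 16.3% and 17.5% in myoblasts. The 18-base exon of Lrrfip1 was in 37.3%, 36.2% and 34.9% in myotubes and in 2.22%, 2.36% and 2.04% in myoblasts, and the 24-base exon of the microtubule-end protein Clasp1 in 41.6%, 46.5% and 42.0% in myotubes and in 5.01%, 6.67% and 4.15% in myoblasts. The 21-base exon of Tmed2 rose by 40.3 points to 41.6%, 40% and 40.3% in myotubes, against 0.361%, 0.320% and 0.309% in myoblasts. Only 1 of the compared transcripts, Tmed2-203, holds that exon. It also differs from the losing Tmed2-201 in its first exon and has 336 coding bases in place of 603.

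The change was not in 1 direction for every short exon. Map4k5, a stress-kinase activator, lost a 3-base exon by 58.1 points, Macf1, which crosslinks actin and microtubules, a 9-base exon by 29.0 points, and Cacna2d1 a 9-base exon by 22.3 points. The exchanged forms Map4k5-201 and Map4k5-203 both have 2541 coding bases, so they also differ elsewhere in their coding sequence. Clasp1 gained the 24-base exon while it lost a 3-base exon by 26.9 points. The 9-base exon of Nav2 was used at both stages, in 95.4%, 95.6% and 96.4% in myotubes and in 55.1%, 54.2% and 44.5% in myoblasts.

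**Figure D4:**
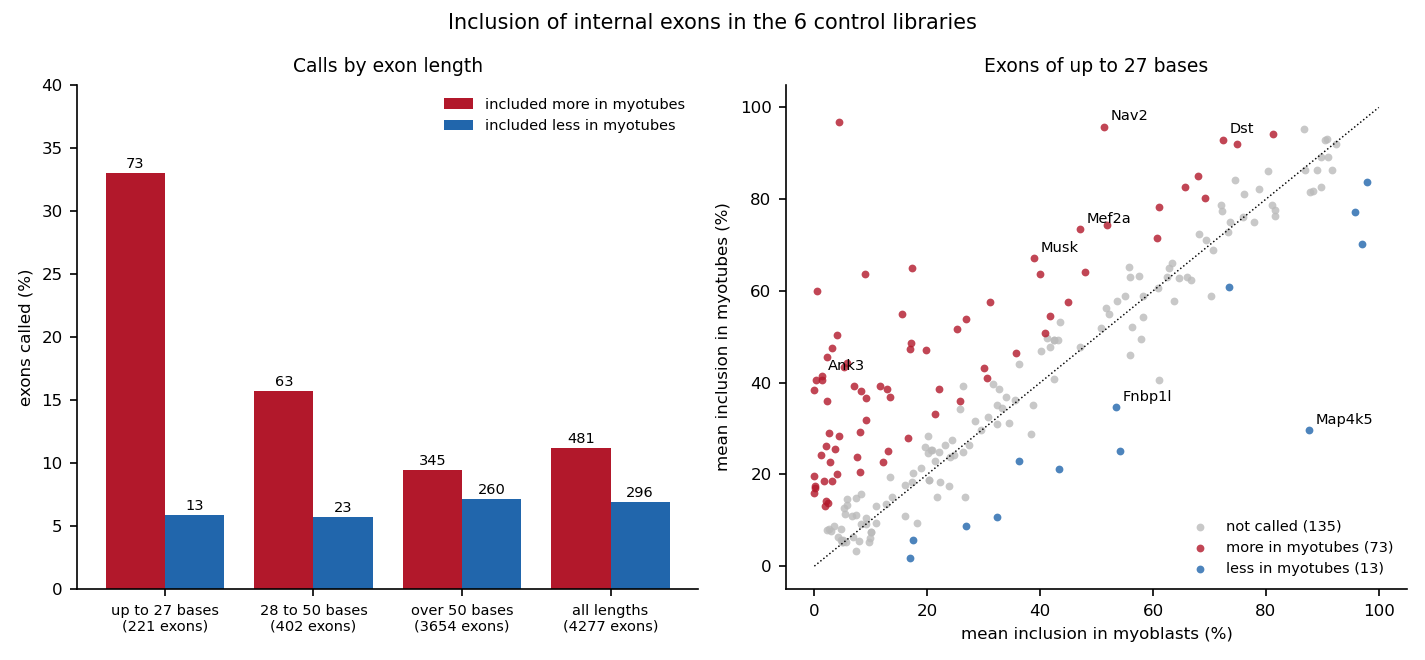
Left, percentage of internal exons called as included more or less in myotubes (y axis) by exon length (x axis), with the number of called exons on each bar. Right, mean inclusion in myotubes (y axis, percent) against myoblasts (x axis, percent) for the 221 exons of up to 27 bases; 73 lie above the diagonal as called and 13 below it.

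Transcripts that keep an intron or carry an early stop were a small part of the output at both stages. Retained-intron transcripts held 4.25%, 4.27% and 4.42% of the TPM of the included genes in myotubes and 4.84%, 4.82% and 4.81% in myoblasts. Transcripts marked for nonsense-mediated decay held 1.61%, 1.63% and 1.64% in myotubes and 1.90%, 1.88% and 1.88% in myoblasts. Neither set of values overlapped between the stages, with differences of -0.508 and -0.258 points on the TPM scale and of -0.244 and -0.176 points with estimated counts in place of TPM; an exact two-sided permutation test gave p = 0.1 for each, the smallest value 3 against 3 libraries allow. Protein-coding transcripts also had lower values in myotubes, with 76.4%, 77.4% and 77.7%, against 80.2%, 79.7% and 79.8% in myoblasts, the remainder belonging to other annotated types. Single retained-intron transcripts rarely passed the call, with 37 gains and 32 losses among 3040 tested (2.27%), against 777 gains and 763 losses among 12312 coding transcripts (12.5%). In 464 of 611 switch genes both leading transcripts of the exchange were coding.

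The same myotube-against-myoblast comparison was made in the libraries with Setd2 siRNAs, which share no library with the controls. Of the 1775 transcripts called in controls, 1736 moved in the same direction in the siRNA 1 libraries and 1253 (70.6%) were also called there; with siRNA 2 the numbers were 1726 and 1204 (67.8%). None was called in the opposite direction with either siRNA. Switch genes numbered 612 with siRNA 1, of which 439 were among the 611 of the controls, and 614 with siRNA 2, of which 430 were. Of the 86 short exons called in controls, 85 moved the same way with siRNA 1 and 80 were also called there, and with siRNA 2 all 86 moved the same way and 71 were called. The third myoblast library of siRNA 2 has SETD3 in its column name where its label has SETD2; without it, 1106 transcripts were called in the same direction and 1 in the opposite one. Twf2-204, for example, gained 81.1 points with siRNA 1, 81.4 with siRNA 2 and 75.2 in controls. Ccna2-203 changed by -13.2 points with siRNA 1 and -3.62 points with siRNA 2, called with neither (adjusted p 0.107 and 0.638 by limma). Stage and deposited table coincide in these libraries too.

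**Figure D5:**
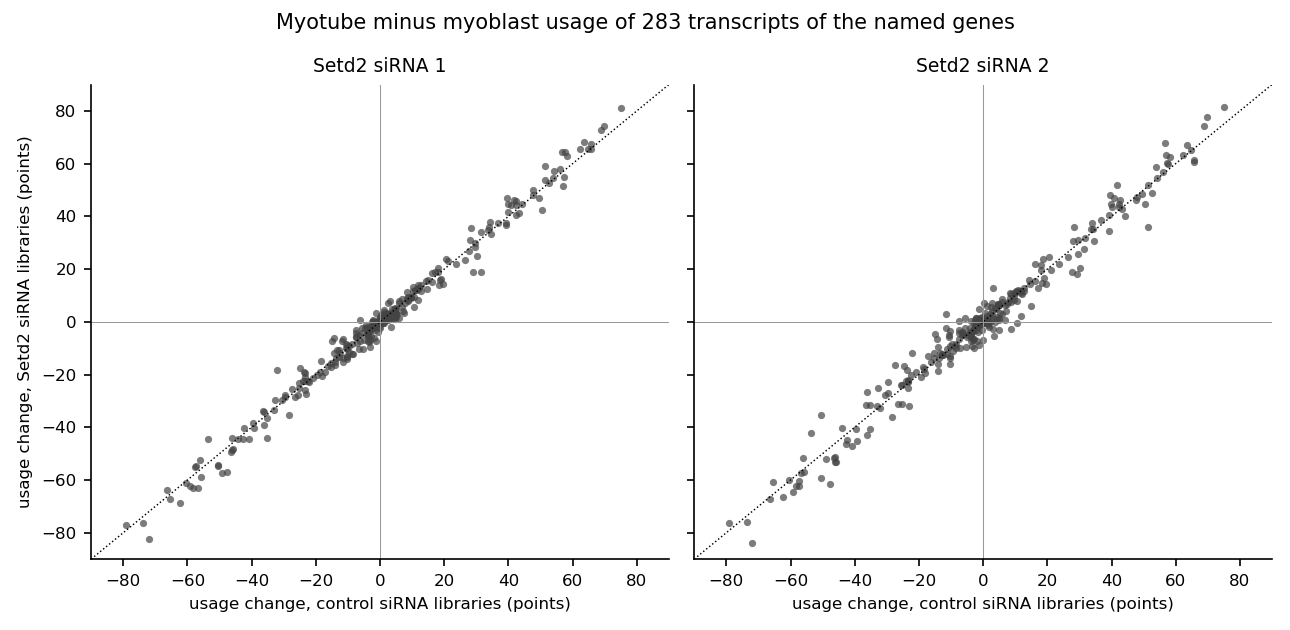
Usage change, myotube minus myoblast in percentage points, of 283 tested transcripts of the named genes in the Setd2 siRNA libraries (y axis, siRNA 1 left and siRNA 2 right) against the control siRNA libraries (x axis). Points lie along the diagonal of equal change, with Twf2-204 at the upper end.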

How the data were processed

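The authors deposited 1 table per stage with TPM and estimated counts for 115088 transcripts; per the file headers, the columns are named as salmon names its output, with the tool, its version and its gene set not given in the sources used here. TPM values were scaled within each library by the authors, and the deposited estimated counts are not scaled between libraries. Per the submitters' processing notes, mm10 and DESeq2 were part of the processing, in roles that are not stated. No strand setting is stated, so reads of a gene and of its antisense partner cannot be told apart, and transcripts that share most of their exons are divided by the quantifier's estimate. Because shares are taken within a gene, scaling between libraries or tables cancels in the shares. In the tested odds it does not cancel fully, because the pseudocount of 0.5 TPM is fixed.

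Columns were matched to samples by library name, and 0 columns of per-sample values were left unused. Transcripts were matched by identifier to GENCODE M21 (114200 matched; 888 unmatched, holding 0.17% to 0.23% of control counts, left out). Usage was tested with limma 3.58.1 in R 4.3.3 on log2((TPM + 0.5) / (gene TPM - TPM + 0.5)) with robust, trended variances, for transcripts with a mean share of 5% or more. Gene totals were tested with edgeR 4.0.16 (rounded summed estimated counts, TMM, filterByExpr with a minimum count of 10, quasi-likelihood test). The exon test used internal exons with 5 TPM or more of including plus skipping transcripts in all 6 libraries, a mean inclusion of 5% to 95%, and transcripts whose annotated length equals the deposited one (107553, 94.2%), with limma on the log2 odds and a pseudocount of 0.5 TPM. The median gene total moved by -0.08 on the log2 TPM scale. The usage, gene-total and exon-inclusion tests were checked on simulated data; edgeR's differential splicing test and the permutation test were not.

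Named genes were the 20 with the largest gain among those with a new leading transcript, up to 4 switch genes of each of 11 lists by size of gain, and a fixed set of genes with known muscle isoforms. The members, lists and fixed genes were chosen with earlier results of these data known. Genes from outside that rule, among them Ank3, Plec, Abi1, Lrrfip1, Musk, Nav2 and Macf1, were named after their values had been seen. Alternatives tried were other pseudocounts, share and TPM minimums, a 20-point limit, an arcsine scale, edgeR's differential splicing test, all 18 libraries in the fit, same-prefix libraries averaged, a replicate block and each library left out. Some transcripts and exons that the naming rule covers are not reported here.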

Additional observations from a re-analysis of the deposited data

How the results depend on the processing

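Replicate numbers did not pair the libraries: same-numbered libraries correlated in their deviations at -0.02, 0.02 and -0.02. With the replicate block, 973 genes had changed usage, 547 switched, 173 changed their leading transcript and 535 switch genes had a changed total. Raising the limit to 20 points left 346 changed, 184 switch and 97 leading-transcript genes, and 40 short exons with more and 5 with less inclusion; fewer features pass a higher limit by construction. edgeR's differential splicing test gave 751, 312 and 134 genes, and the cause of the lower count was not tested. Under the other 8 settings of pseudocount, scale, minimums and libraries, the counts lay at 913 to 1125 changed, 525 to 648 switch and 151 to 193 leading-transcript genes. Leaving out 1 library at a time gave 924 to 1021, 522 to 560 and 158 to 176, with 64 to 68 short exons more and 11 to 14 less included. The difference in retained-intron share was -0.244 points with estimated counts in place of TPM, and that of nonsense-mediated decay transcripts was -0.29 with all genes and -0.176 with estimated counts. Of 131 named called transcripts under 11 alternatives, 1416 results kept their call, 25 lost it and 0 reversed. The exon inclusion settings, and leaving out the SETD3-named library, were chosen after seeing the data. Shares of genes near 5 TPM rest on few reads, and transcripts known only as fragments, such as Scrib-205, depend on the annotation.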
